A study of Mus musculus with 12 samples.

Results

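Day 7 after a crush of the sciatic nerve was compared with day 3, in the part of the nerve beyond the injury. The comparison rests on the 6 arrays that the sample titles assign to these days, 3 a day, of the 12 arrays of the series. All animals were C57Bl6 mice about 2 months old, with no transgene or drug named beyond the anaesthetic. The nerve of the right thigh was compressed for 30 s, which severed the axons and spared the outer sheath, and 0.5 cm of the distal segment was taken at 0, 3, 7 or 14 days. Each array held total RNA pooled from 6 mice, so 18 mice stood behind each day and 72 behind the series, and the p-values measure the spread between pools. The one-colour array, printed for long non-coding RNA of the mouse, carried 90752 probes of 60 bases. The series title asks how the non-coding RNA of the distal nerve differs after injury, and the step from day 3 to day 7 is its middle interval.

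In the days after such an injury the cut axons and their myelin fall apart beyond the crush, Schwann cells leave the myelinating state and divide, and macrophages and neutrophils enter and clear the debris. Axons then grow back into the segment and Schwann cells begin to wrap them again. MicroRNAs are cut from stem-loop hairpins within longer primary transcripts. The mature strand pairs with its targets through the seed, bases 2 to 8.

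The files pair no probe with a gene, so the markers of Schwann cells, macrophages and fibroblasts could not be looked up and the labelled tissue was not checked against them here. Probes were therefore placed by their letters. A probe was placed where its letters matched exactly, over at least 25 bases, 1 RefSeq microRNA hairpin or 1 window around a RefSeq gene start (250 bases before to 50 after it, GRCm38.p6). On the hairpin's own strand 940 probes were placed, over 874 microRNA genes. A further 377 probes lay on the strand of the gene whose start they flank and 300 on the opposite strand. A hairpin probe reads any labelled RNA with those letters, such as the primary transcript or its host RNA, and the mature microRNA was not measured apart from it. Which exon or intron a probe fell in was not analysed.

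The sequences below carry the results that follow. Each probe is the RNA strand it detects, written as DNA, and capitals in a hairpin probe mark a mature strand listed in the RefSeq table that it holds whole. For Mir23b the table used lists the 5p strand alone. The first set is the Mir23b, Mir27b and Mir24-1 cluster, which rose together.
Mir23b probe, 49 bases at chr13:63300509-63300557, plus strand: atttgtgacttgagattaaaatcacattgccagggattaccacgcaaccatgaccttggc
Mir27b probe, 55 bases at chr13:63300730-63300784, plus strand: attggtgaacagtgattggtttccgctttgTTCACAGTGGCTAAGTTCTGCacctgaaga
Mir24-1 probe, chr13:63301216-63301275, plus strand: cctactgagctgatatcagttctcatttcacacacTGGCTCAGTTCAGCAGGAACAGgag
The second set is the probes of hairpins that lay below day 0 at day 3 and higher at day 7.
Mir338 probe, chr11:120014765-120014824, minus strand: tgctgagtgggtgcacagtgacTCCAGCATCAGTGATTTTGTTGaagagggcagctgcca
Mir218-1 probe, chr5:48223973-48224032, plus strand: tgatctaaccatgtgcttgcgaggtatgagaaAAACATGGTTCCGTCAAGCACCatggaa
Mir100 probe, chr9:41531445-41531504, plus strand: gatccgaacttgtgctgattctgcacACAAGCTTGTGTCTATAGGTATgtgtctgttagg
The third set is probes that fell. In the Adam8-strand and Hyal1-strand probes, capitals mark the part that matched the window.
Mir763 probe, chr10:120447991-120448050, minus strand: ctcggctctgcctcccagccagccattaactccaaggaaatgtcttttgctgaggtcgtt
Il1b-strand probe, chr2:129369732-129369791, minus strand: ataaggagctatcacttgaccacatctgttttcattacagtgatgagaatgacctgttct
Adam8-strand probe, 32 bases at chr7:139978974-139979005, minus strand: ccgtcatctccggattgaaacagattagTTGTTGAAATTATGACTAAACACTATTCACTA
Hyal1-strand probe, 51 bases at chr9:107580419-107580469, plus strand: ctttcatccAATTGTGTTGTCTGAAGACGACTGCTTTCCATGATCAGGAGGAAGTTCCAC

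Mature strands from RefSeq, with the seed in capitals, group the hairpins that share target pairing. The miR-27 pair, the miR-99a and miR-100 pair, the let-7 pair, the miR-29 pair and the miR-221 and miR-222 pair each share 1 seed, and Mir24-1 and Mir24-2 give the same mature strand.
miR-27b-3p: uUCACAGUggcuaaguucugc
miR-27a-3p: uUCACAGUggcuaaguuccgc
miR-24-3p: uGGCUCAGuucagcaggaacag
miR-99a-5p: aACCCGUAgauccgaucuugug
miR-100-5p: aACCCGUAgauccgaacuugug
let-7c-5p: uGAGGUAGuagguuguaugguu
let-7f-5p: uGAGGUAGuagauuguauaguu
miR-29a-3p: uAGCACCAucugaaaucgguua
miR-29b-3p: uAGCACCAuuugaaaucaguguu
miR-221-3p: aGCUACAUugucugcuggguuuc
miR-222-3p: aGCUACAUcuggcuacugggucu
miR-338-3p: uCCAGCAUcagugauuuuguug
miR-218-5p: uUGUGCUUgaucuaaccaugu
miR-763: cCAGCUGGgaagaaccaguggc

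The arrays lay on 3 slides that split the days unevenly. Day 3 replicates 1 and 2 were on slide 1 and its replicate 3 on slide 2, while day 7 replicates 2 and 3 were on slide 2 and its replicate 1 on slide 3. Slide 2 alone held both days. Of the other arrays, day 0 replicates 1 and 2 were on slide 1 and its replicate 3 on slide 2, and all 3 day 14 arrays were on slide 3. The slide 1 arrays were scanned on 1 day and those of slides 2 and 3 on another. Comparisons with day 0 and day 14 are thus also tied in part to slide and scan day. From 64.2% to 79.5% of the spots on an array were well above background, with the slide 1 arrays highest, and no spot was saturated. Values are log2 signals scaled to a common 75th percentile per array. The 62803 tested probes passed the scanner's background test 3 times out of 3 on some day, and a probe was called at a limma adjusted p below 0.05. The block is the same fit with slide as a fixed term. The fit without it takes arrays of the same slide as independent, while with slide as a random term their correlation was 0.56. In bulk nerve, fewer cells of a type and less RNA per cell cannot be told apart.

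From day 3 to day 7 the hairpins of Mir23b, Mir27b, Mir338, Mir218-1 and Mir100 rose 2.26-fold to 3.23-fold, 3 of them from a level below the uncrushed nerve. For the probes on the Adam8 and Hyal1 strands named next, the source gene was not settled. Probes on the strands of Il1b, Adam8 and Hyal1 and at Mir763 fell 2.30-fold to 3.87-fold from a level above the uncrushed nerve. With normexp background correction all of these kept the call, but the rises were 1.59-fold to 2.10-fold, with Mir23b at 1.73-fold, Mir338 at 1.99-fold and Mir218-1 at 1.59-fold, and the Il1b-strand fall was 1.64-fold. The Il1b-strand probe lost the call under quantile normalization and with the authors' deposited log2 values. In all, 9836 probes rose and 11697 fell, 15.7% and 18.6% of the 62803, or 34.3% together. Rises reached 2-fold for 2178 probes and falls for 3061, which is 3.47% and 4.87% of all tested. At 4-fold there were 285 rises and 320 falls, and at 8-fold 62 and 72. The median over all tested probes was -0.11 on the log2 scale. Under quantile normalization this median was 0.02 and the balance turned: 12959 rose and 9270 fell, so rises made up 58.3% of calls in place of 45.7%. The share was also 58.3% with the authors' deposited log2 values. These gave nearly the same calls as quantile normalization (12962 rose and 9266 fell), so they are no separate check. With the percentile taken over probes above background on all arrays the share was 53.3%. Whether more RNAs rose or fell thus depends on the scaling. With slide as a block 6846 probes rose and 9336 fell (10.9% and 14.9%, or 25.8% together), and no probe was called the opposite way by the 2 fits. Both fits called 5848 rises and 6020 falls, 9.31% and 9.59% of tested probes. Among changes of 2-fold or more, 1982 of the rises (91.0%) and 1733 of the falls (56.6%) kept the call with the block. Single arrays weighed on the counts, with 12088 probes called once day 3 replicate 1 was left out, 12180 once day 7 replicate 1 was, and 13724 once day 7 replicate 3 was. Falls were most affected, at 5630, 5676 and 6715 without these arrays and 7393 without day 3 replicate 2, while rises were at 6458, 6504, 7009 and 7860. Without day 3 replicate 3, the day 3 array of slide 2, the counts grew, to 27576 called, 11515 higher and 16061 lower.

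**Figure D1:**
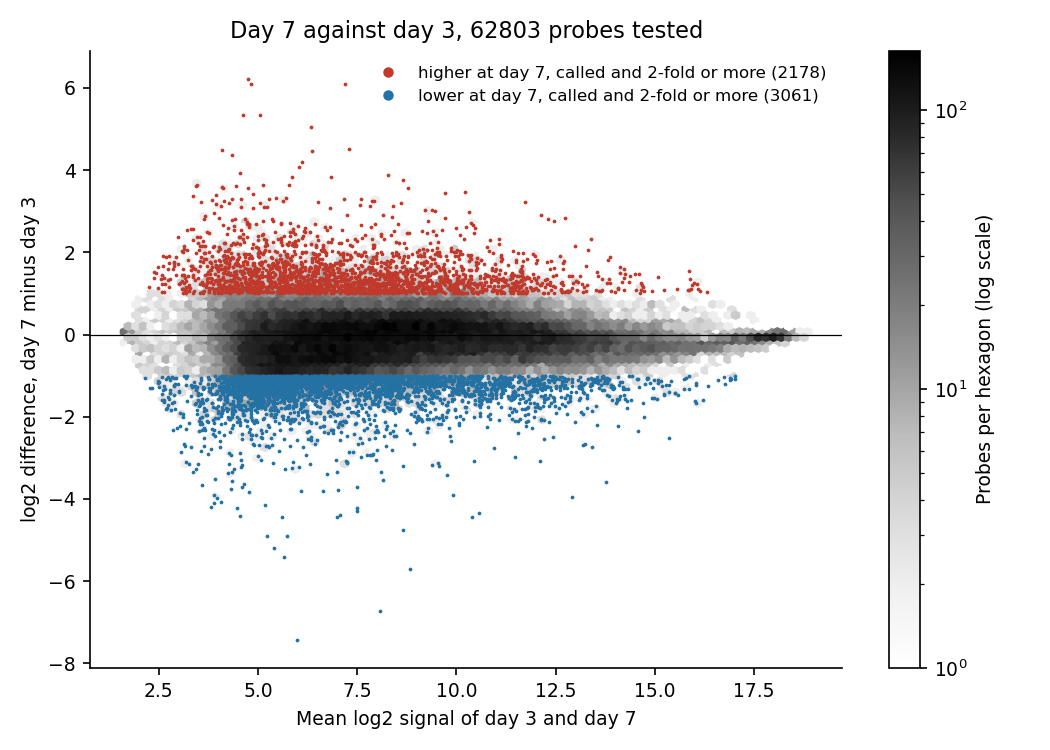
Log2 difference of day 7 minus day 3 (vertical axis) against the mean log2 signal of both days (horizontal axis) for 62803 tested probes; grey hexagons show how many probes share a place, on a log scale. Coloured points are called probes that changed 2-fold or more, 2178 higher and 3061 lower at day 7, and the widest changes lie at low and middle signals.

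Falls at low signals depended most on the slide term: the median log2 signal was 8.19 over all falls and 9.76 over those called also with the block. Of 4 bins of equal size by signal, the dimmest had a median log2 signal of 5.23. There the median difference was -0.29 and 2834 probes fell against 1794 that rose. With the block that median was 0.00 and 1039 fell against 1563. In the brightest bin the block gave 4622 falls and 1251 rises, against 3254 and 2058 without it. The part of slide in single dim probes was not tested beyond the values given beside them. Probes that rose held less G and C, with a median of 38.3% (quartiles 35.0% and 45.0%), than probes not called, with 41.7% (quartiles 36.7% and 45.0%), and the quartile ranges overlapped widely.

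Probes that share letters on the same strand were mostly called alike. Of 2031 pairs on the same strand that shared 25 bases or more and were both tested, 938 had at least 1 call. In 603 of these (64.3%) both probes were called the same way, and in 0 the opposite way. Of 85 such pairs on opposite strands, 20 were called the same way, 4 the opposite way, and 61 had a single probe called. Among the same-strand pairs 335 had a single probe called. Whether the strands of a place differed was not tested. Paired probes share bases and are no independent replicates.

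The day 0 arrays show where each changed RNA had stood in the uncrushed nerve. The day 0 mean lay above both later means for 4188 of the 9836 rises (42.6%), between them for 3709 (37.7%) and below both for 1939 (19.7%). Among falls, day 0 lay between the later means for 5500 of 11697 (47.0%), below both for 3644 (31.2%) and above both for 2553 (21.8%). The order among rises depended on the scaling: under quantile normalization 5445 had day 0 between and 4770 above both, and with the authors' deposited log2 values 5448 and 4770. For the falls called with and without the block, the order changed too: day 0 lay below both for 2937 (48.8%), between for 1985 (33.0%) and above both for 1098 (18.2%). For the rises called both ways it was 2645 (45.2%) above both, 2254 (38.5%) between and 949 (16.2%) below both. The falls with day 0 above both numbered 7762 without day 0 replicate 3, the day 0 array of slide 2, and from 1021 to 1295 without day 3 replicate 1 or 2 or day 7 replicate 1 or 3. Falls with day 0 between ranged from 2048 without day 3 replicate 1 to 9818 without day 3 replicate 3. These comparisons share the day 3 and day 7 arrays, so the counts describe the probes and carry no test. The same shares over all tested probes are not given, so no trait particular to the rises or falls is read from them.

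**Figure D2:**
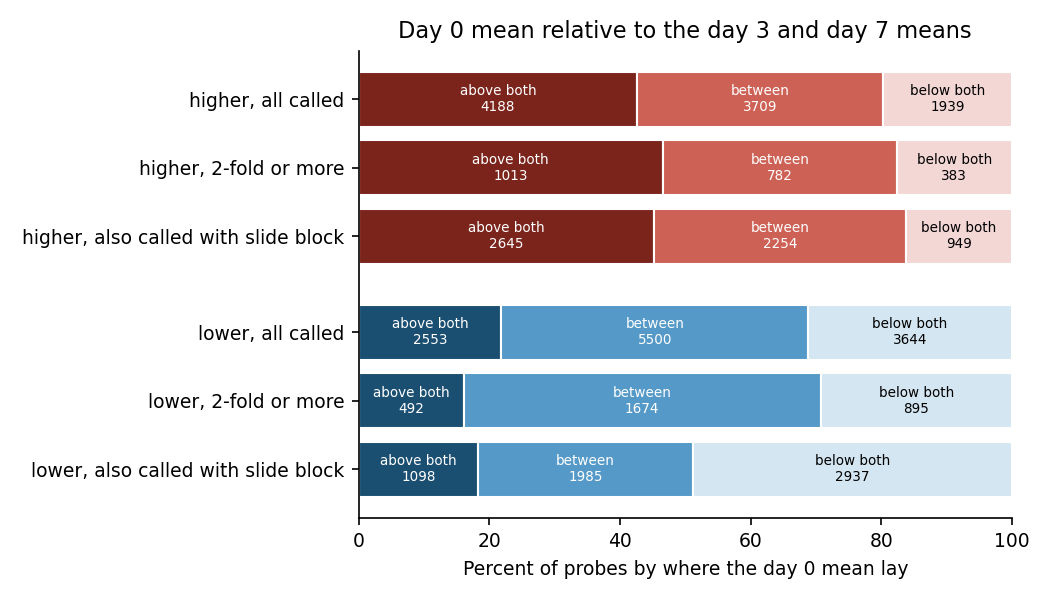
Horizontal bars give the percent of called probes (0 to 100) whose day 0 mean lay above both, between or below both of the day 3 and day 7 means, with probe counts printed inside. Rises (red) mostly had day 0 above or between, and among falls (blue) called also with the slide block, 2937 had day 0 below both.

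Calls against day 0 in the same fit sorted the probes further. At day 3, 21.7% of tested probes were above and 22.7% below day 0, and at day 7, 20.4% and 24.0%. Among the rises, 3387 were below day 0 at day 3 and not called against it at day 7, with a median log2 signal of 8.64 at day 0, 7.85 at day 3, 8.60 at day 7 and 8.72 at day 14. Another 2146 were below day 0 on both days, with medians of 9.27, 7.52, 8.31 and 8.72 in the order of the days. A late group of 2129 was not called at day 3 and above day 0 at day 7, and 795 were above day 0 already at day 3 and higher again at day 7. A group of 285 crossed from below day 0 at day 3 to above it at day 7, with medians of 7.99, 7.31, 8.50 and 8.65, and all 285 were called with the block.

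Among the falls, 2077 were above day 0 on both days, with medians of 8.60 at day 0, 10.69 at day 3, 9.87 at day 7 and 9.49 at day 14. Next came 2732 that were above day 0 at day 3 and not called against it at day 7, with medians of 8.85, 9.67, 8.87 and 8.74. Of these groups 1808 and 1965 probes were called with the block. Falls that lost the call with the block were more common in the groups not above day 0 at day 3. Of 2864 probes called against day 0 on neither day, 411 were called with the block, and of 2947 below day 0 only at day 7, 1114 were. Another 169 went from above day 0 at day 3 to below it at day 7, and 908 were below it on both days, of which 553 were called with the block.

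**Figure D3:**
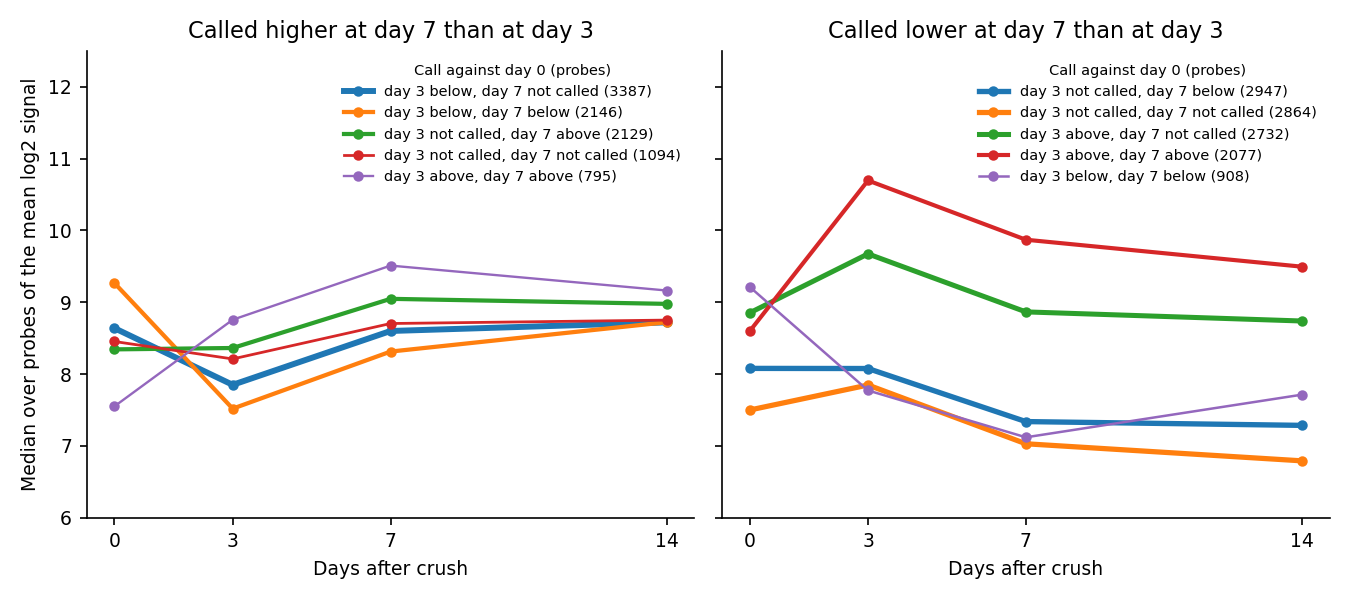
Medians over probes of the mean log2 signal (vertical axis) at 0, 3, 7 and 14 days after crush (horizontal axis), for probes called higher (left) or lower (right) at day 7 than at day 3, split by their calls against day 0; line width grows with the number of probes, given in the legend. The groups of 285 and 169 probes that crossed day 0 are left out, and the group of 2077 falls that stayed above day 0 runs from 8.60 to 10.69 and back to 9.87.

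Most of the changed probes were not called again between day 7 and day 14, which does not show that they held still. Of the 9836 rises, 8060 (81.9%) were not called between day 7 and day 14, 1276 rose again and 500 fell. Of the 11697 falls, 10489 (89.7%) were not called, 711 fell again and 497 rose. Over all tested probes 5.61% rose and 4.35% fell between these days. The rises that were below day 0 on both days included 799 of the 1276 that rose again.

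The Mir23b, Mir27b and Mir24-1 hairpins lie on the plus strand of chromosome 13, within the limits of Aopep, an aminopeptidase gene, and their microRNAs are well known from vessels and smooth muscle. For Mir23b the log2 signal of the day 3 arrays was 4.95, 4.66 and 5.02, against 6.87, 6.45 and 6.37 for day 7. The rise was 1.69 (SE 0.16, limma adjusted p = 0.000104), or 3.23-fold, with no overlap between the days. Mir27b went from 6.74, 6.57 and 6.92 to 8.29, 8.08 and 8.08, a rise of 1.40 (SE 0.13, limma adjusted p = 9.2e-05). Mir24-1 went from 5.66, 5.44 and 5.86 to 6.94, 7.00 and 6.44, a rise of 1.14 (SE 0.20, limma adjusted p = 0.0023). All 3 kept the call with the block, at 1.36, 1.18 and 1.12. At day 3 none was called against its day 0 mean (5.14, 6.64 and 5.89), and at day 14 the means were 7.17, 8.48 and 7.40. At day 7 all 3 were above day 0, by 1.43, 1.51 and 0.91 (limma adjusted p = 4.39e-05, 6.25e-06 and 0.00383).

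The sister cluster on chromosome 8, whose hairpins give the same or like mature strands, had another course. Mir23a was at a mean of 4.90 at day 3 and 5.01 at day 7, Mir27a at 5.18 and 5.45, and Mir24-2 at 6.03 and 5.92. None was called between these days (limma adjusted p = 0.832, 0.316 and 0.544), and with the block Mir23a was lower at day 7 by -0.83 (SE 0.19, limma adjusted p = 0.016). Mir23a and Mir27a were above day 0 already at day 3, with means of 4.90 and 5.18 against 3.80 and 4.57 (limma adjusted p = 0.0307 and 0.0328). The day 0 mean of Mir23a lay near the weakest signals well above background on those arrays (3.79, 3.71 and 3.83 before scaling). The difference between the clusters itself was not tested.

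Mir338 lies on the minus strand within Aatk, a kinase gene of the nervous system, and miR-338 is known from myelinating glia. Its log2 signal was 8.15, 8.12 and 8.44 at day 0. It was 5.49, 5.53 and 6.49 at day 3, then 7.89, 7.17 and 7.21 at day 7, and averaged 8.97 at day 14. All day 3 arrays lay below all arrays of the other days. The rise from day 3 was 1.59 (SE 0.27, limma adjusted p = 0.00188), and 0.92 (SE 0.17, limma adjusted p = 0.00571) with the block. At day 7 it was still below day 0, by -0.82 (limma adjusted p = 0.0289). Mir219a-1, of another microRNA known from myelinating glia of the brain, went the other way, from 9.24, 8.91 and 8.93 to 8.21, 8.25 and 8.58, a fall of -0.68 (SE 0.13, limma adjusted p = 0.00438), also called with the block.

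Mir218-1 lies within Slit2, which encodes a guidance cue for axons. It read 5.31, 5.01 and 5.62 at day 3 and 6.65, 6.79 and 6.38 at day 7, against 7.26, 7.42 and 7.56 at day 0. The rise of 1.30 (SE 0.17, limma adjusted p = 0.000463) brought it part of the way back, and it was below day 0 by -0.81 at day 7 (limma adjusted p = 0.00264). Mir100, within its host RNA Mir100hg, went the same way, from 5.43, 5.47 and 5.59 to 6.91, 6.43 and 6.68, with 7.42, 7.22 and 7.57 at day 0. Its rise was 1.17 (SE 0.15, limma adjusted p = 0.000478).

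Mir99a and Mirlet7c-1 neighbour each other on chromosome 16 and rose together. Mir99a, which shares its seed with Mir100, went from 6.16, 5.83 and 6.14 to 6.89, 7.35 and 7.06, a rise of 1.06 (SE 0.22, limma adjusted p = 0.0057). Mirlet7c-1 went from 5.57, 5.79 and 5.36 to 6.73, 6.53 and 6.57, a rise of 1.03 (limma adjusted p = 0.000352). Both were below day 0 at day 3 (by -0.69 each). Of 9 let-7 hairpins tested, 2 rose and 1 fell, a share of 33.3% called beside 34.3% over all tested probes, with a median of 0.29. The other riser, Mirlet7f-1, went from 5.28, 5.19 and 5.30 to 6.16, 5.90 and 6.01, and the fall, Mirlet7e at -0.56, was not called with the block (limma adjusted p = 0.324). The let-7 microRNAs are known for restraining growth and division.

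The imprinted region on chromosome 12 expresses the long non-coding RNAs Meg3, Rian and Mirg from the maternal copy, with many hairpins among them. A probe 141 to 82 bases before the RefSeq start of Meg3, on its strand, read 15.58, 15.56 and 14.99 at day 3 and 16.22, 16.43 and 16.43 at day 7. The rise was 0.99 (SE 0.20, limma adjusted p = 0.00455), and 1.12 in the block fit. Of the 15 hairpins tested in the stretch that includes Mirg, 3 rose and 2 fell, with a median of -0.11. With the block 6 rose and 0 fell. Mir377 was well above background on 1 day 3 array and on all 3 day 7 arrays, and on none at day 0 or day 14. It read 3.25, 4.30 and 3.08 against 4.32, 4.62 and 5.18, and no size is read from it. It is among the 15 only because of its day 7 arrays, so their counts are a description and no test. Mir453 went from 6.88, 6.81 and 6.35 to 7.14, 7.21 and 7.38 (limma adjusted p = 0.0149). The probe before the start of Mirg fell from a mean of 8.70 to 7.97 without the block (limma adjusted p = 0.0327) and was at -0.26 with it (limma adjusted p = 0.311).

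3 further probes were among the 12 largest rises. One read the strand opposite to Tmbim1, before its start and within Pnkd, and was the furthest below day 0 of the named rises. It went from 10.34, 10.19 and 10.74 at day 0 to 6.57, 6.44 and 6.59 at day 3 and 8.46, 7.85 and 7.98 at day 7, a rise of 1.56 (SE 0.18, limma adjusted p = 0.000253). A probe before the start of Chrnb1, the beta subunit of the muscle acetylcholine receptor, also lay within Fgf11 on the same strand, so its source gene was not settled. It went from 10.90, 10.71 and 11.40 to 12.57, 12.48 and 11.85 (limma adjusted p = 0.00156). Mir214, within Dnm3os and known from fibroblasts, went from 9.19, 8.96 and 8.59 to 9.81, 9.51 and 10.20 (limma adjusted p = 0.0177) and lost the call with the block (limma adjusted p = 0.0664).

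**Figure D4:**
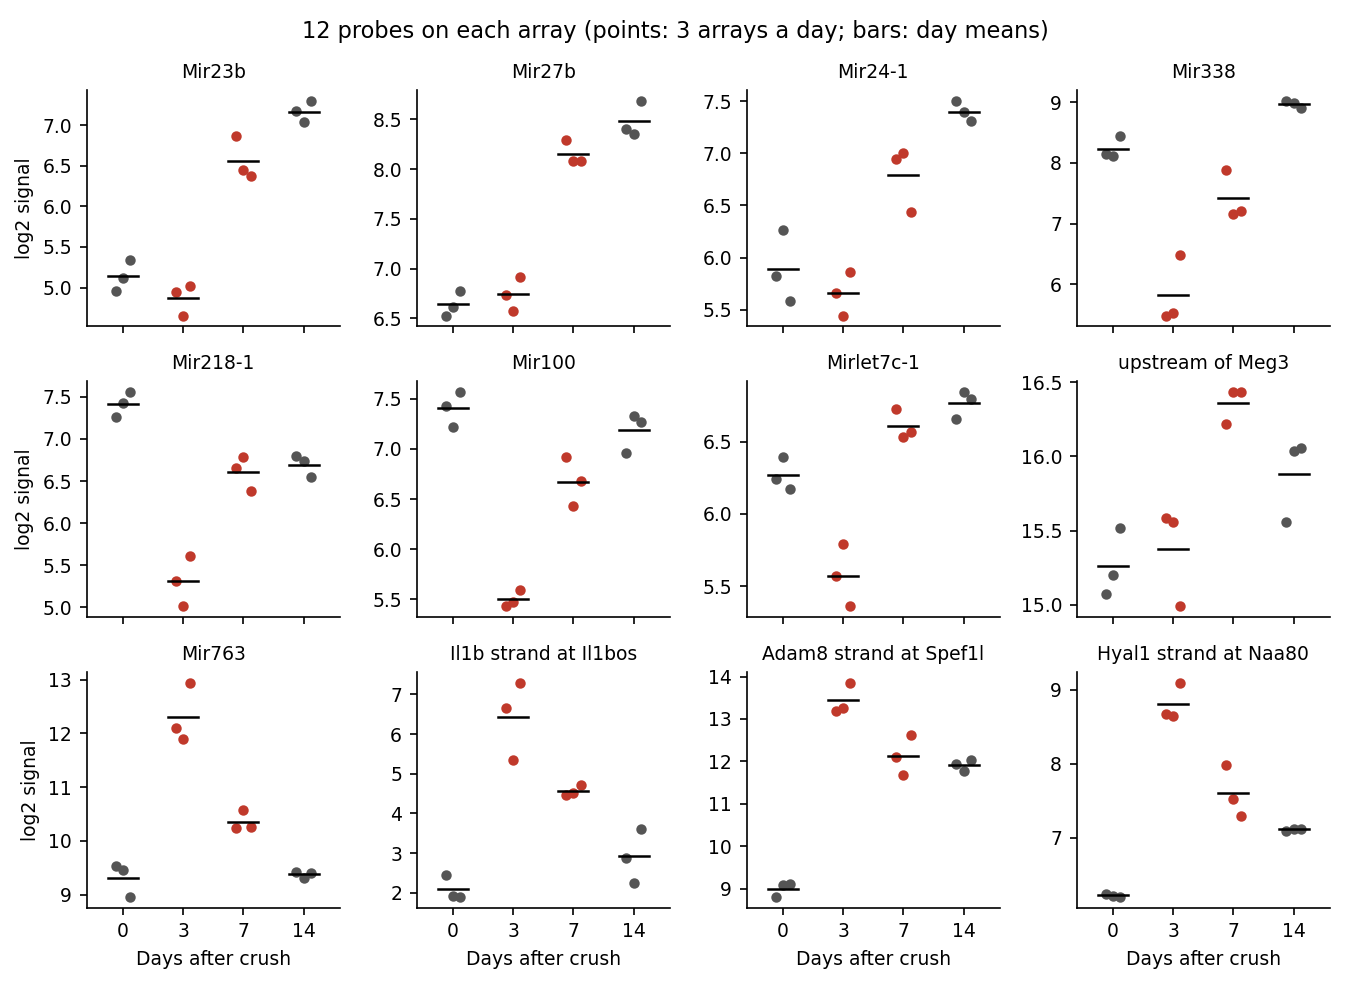
Log2 signal (vertical axes, each on its own scale) of 12 placed probes on each array at 0, 3, 7 and 14 days; points are arrays, 3 a day, red for day 3 and day 7, and black bars are day means. The upper 8 probes are higher on every day 7 array than on any day 3 array and the lower 4 are lower, and the day 0 points lie above day 3 for Mir338, Mir218-1, Mir100 and Mirlet7c-1, near it for the Mir23b cluster and Meg3, and below it in the lower row.

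Several named falls were of RNAs that had peaked at day 3. The probe opposite to Il1bos lay on the strand of Il1b, within the limits of this gene for the inflammatory cytokine interleukin-1 beta. It was well above background on no day 0 array, read 6.65, 5.34 and 7.30 at day 3 and 4.47, 4.52 and 4.71 at day 7, and was again well above background on no day 14 array. The fall was -1.86 (SE 0.45, limma adjusted p = 0.0116), and -2.15 with the block (limma adjusted p = 0.0366). Under quantile normalization its adjusted p was 0.0542 (limma), at -1.56, and with the authors' deposited log2 values it was 0.0542 (limma), at -1.56, so neither called it.

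The probe before the start of Spef1l lay on the strand of Adam8, a membrane metalloprotease of white blood cells, and within its limits. Whether it read Adam8 or Spef1l RNA was not settled. The probe read 8.81, 9.08 and 9.13 at day 0, 13.20, 13.26 and 13.85 at day 3 and 12.10, 11.67 and 12.62 at day 7. The fall was -1.31 (SE 0.24, limma adjusted p = 0.00283), and the level stayed 3.13 above day 0. The probe before Naa80 lay within Hyal1, a gene for an enzyme that breaks down hyaluronan, on its strand. Here too the source gene, Hyal1 or Naa80, was not settled. This probe went from 6.25, 6.22 and 6.20 at day 0 to 8.67, 8.64 and 9.09 at day 3. It read 7.98, 7.53 and 7.30 at day 7, a fall of -1.20 (SE 0.17, limma adjusted p = 0.00078). Both were called with the block, at -1.56 and -1.52.

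Mir763 had the largest fall of the placed probes named here. It lies within Hmga2, a chromatin protein gene of growing and embryonic tissue, on the same strand. Its log2 signal was 9.54, 9.45 and 8.95 at day 0, 12.10, 11.89 and 12.94 at day 3 and 10.24, 10.57 and 10.26 at day 7, with a mean of 9.38 at day 14. The fall was -1.95 (SE 0.25, limma adjusted p = 0.000458), or 3.87-fold, and -2.03 with the block. Mir1983 rose and returned as well, from a mean of 6.19 at day 0 to 7.33, 7.33 and 7.70 at day 3 and 5.90, 6.08 and 6.36 at day 7 (limma adjusted p = 0.000173). A probe before the start of Appbp2os fell from 6.94, 7.18 and 6.83 to 5.61, 5.73 and 5.90 (limma adjusted p = 0.00133) and was below day 0 at day 7. Both kept the call with the block.

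The other 6 of the 12 largest named falls lost the call with the block. They were Mir294, Mir31, Mir222, Mir6394, Mir681 and a probe on the strand opposite to H2aw, a histone gene. Mir31 shows the pattern: on slide 1 it read 6.52 and 6.58 at day 0 and 6.93 and 6.89 at day 3, but on slide 2 it read 4.97 at day 0 and 5.75 at day 3. The day 7 arrays read 5.03, 5.36 and 5.09. Its fall of -1.37 (limma adjusted p = 0.0299) was -0.39 with the block (limma adjusted p = 0.107). Mir294, known from embryonic stem cells, was at -1.46 without and -0.47 with the block, Mir6394 at -1.22 and -0.52, and Mir681 at -1.14 and -0.12, and each had its slide 1 arrays high at day 0 and day 3. The H2aw-opposite probe differed in that day 3 replicate 3, on slide 2, was its highest day 3 array, at 6.34.

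**Figure D5:**
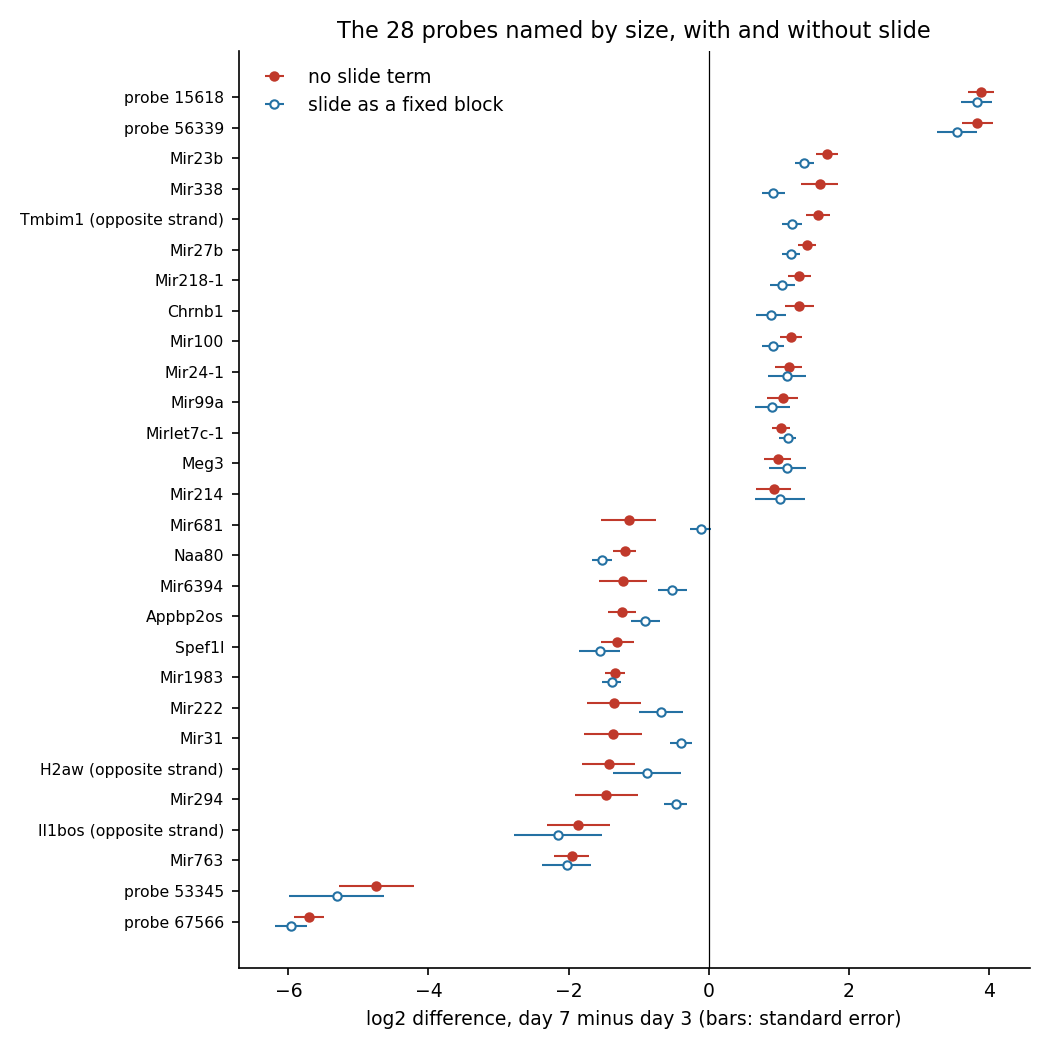
Log2 difference of day 7 minus day 3 with its standard error (horizontal axis) for the 28 probes named by size, without a slide term (filled red) and with slide as a fixed block (open blue). All 28 keep their sign and 21 keep the call, and the changes that shrink are mainly hairpin falls such as Mir681, Mir31 and Mir294.

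Mir221 and Mir222 share a seed and a place on the X chromosome and are known from vessels and dividing cells. Mir221 went from 5.87, 5.88 and 5.53 to 4.74, 4.53 and 4.73 and Mir222 from 5.83, 6.25 and 5.53 to 4.59, 4.64 and 4.33. The falls of -1.09 and -1.35 (limma adjusted p = 0.03 and 0.0219) were -0.52 and -0.67 with the block (limma adjusted p = 0.226 and 0.152). The 3 hairpins of the Mir25, Mir93 and Mir106b cluster also fell, at -0.63, -0.65 and -0.80 (limma adjusted p = 0.0213, 0.0187 and 0.0391). With the block they were at -0.52, -0.24 and -0.20 and none was called, while under quantile normalization all 3 were. This cluster is known from dividing cells.

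The miR-29 microRNAs are known to target collagens, and both hairpins read here were near background. Mir29a was well above background on all 3 arrays at day 3 (4.80, 4.01 and 5.17) and on none at day 0, day 7 or day 14. It was tested only because of its day 3 arrays, so its fall is given as a bound without a test: at least 1.66-fold, set by the weakest signals well above background. Mir29b-2, which shares the seed, was well above background on no day 3 array and on 1 day 7 array, and read 3.12, 3.94 and 3.08 against 4.35, 4.17 and 4.65, so no change is read from it. Mir199a-1, also on the fibroblast list and well above background on 2 of the day 3 arrays, rose from a mean of 4.48 to 5.58 (limma adjusted p = 0.0117), and its difference was 0.86 with the block (limma adjusted p = 0.0919).

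Of the 8 tested hairpins of the blood and immune list, 3 were above day 0 on both day 3 and day 7 (Mir142, Mir223 and Mir147), and these 3 were chosen after their values were seen. Another 1 of the 8 was called below day 0 at day 7. Mir142 had means of 2.48 at day 0, 6.03 at day 3 and 5.89 at day 7, Mir223 had 2.16, 5.27 and 4.85, and Mir147 had 4.68, 9.95 and 9.33. The limma adjusted p between day 3 and day 7 was 0.675, 0.335 and 0.136. Mir142 and Mir223 were well above background on no day 0 array. Mir21a, raised in many injured tissues, went from 5.51 at day 0 to 8.34 and 8.78 and was not called either (limma adjusted p = 0.133). None of the 8 tested hairpins of the blood and immune list was called, where 34.3% of all tested probes were, and their median was -0.45 (-0.15 with the block).

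Over all 567 tested hairpin probes on their own strand, 39 rose (6.88%, against 15.7% of all tested probes) and 108 fell, a share close to the 18.6% of all, with a median of -0.37. With the block 31 rose and 36 fell, where 10.9% and 14.9% of all did, and the median was -0.10, near the -0.06 of all tested probes, and 23 rises and 19 falls were called by both fits. These probes were dim, with a median log2 signal of 6.77 against 8.11 for all. Probes at gene starts on the gene's strand, 271 tested, gave 28 rises and 45 falls with a median of -0.12, and those on the opposite strand, 208 tested, gave 18 and 33 with -0.12. Of 959 tested placed genes, counted once per strand and kind of match, 861 passed the background test on all 6 arrays. Among these, 61 (7.08%) were called higher and 163 (18.9%) lower with no overlap between the days, against 15.2% and 18.1% of the 56009 probes that passed likewise. Without that condition 15.2% of all tested probes were called higher and 18.0% lower with no overlap.

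The other microRNA lists were short, and their counts stand beside 15.7% rises, 18.6% falls and a median of -0.11 over all tested probes (-0.06 with the block). Of 6 tested members of the Mir17-92 and related clusters 0 rose and 3 fell, with a median of -0.64. With the block none of the 3 was called and the median was -0.19. Of 9 vessel and smooth muscle members 3 rose and 3 fell, with a median of 0.11. The 3 rises kept the call with the block, the falls did not, and the median was -0.14. Of 12 fibroblast and matrix members 3 rose and 3 fell, with a median of 0.02. The 12 include Mir29a, tested only because of its day 3 arrays, so this count is a description and no test. With the block 0 of these rises and 1 of the falls were called, and the median was 0.15. Of 5 myelin and glial members 1 rose and 1 fell, both also with the block, and the median was -0.55 (-0.08 with the block). Of 9 neuronal members 3 rose and 1 fell, of which 2 rises and 0 falls kept the call, and the median was -0.84 (-0.09 with the block). None of the 2 epithelial members and of the 1 muscle member tested was called, and 0 of 2 erythroid members was tested.

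Most changed probes could not be placed. Of these, the 2 largest rises and the 2 largest falls are shown with their letters, under the same conditions.
MOUSELNCRNA_15618, which rose: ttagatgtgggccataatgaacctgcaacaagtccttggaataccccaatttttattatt
MOUSELNCRNA_56339, which rose: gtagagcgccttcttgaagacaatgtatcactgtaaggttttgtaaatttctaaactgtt
MOUSELNCRNA_67566, which fell: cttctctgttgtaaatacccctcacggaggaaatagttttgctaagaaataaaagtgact
MOUSELNCRNA_53345, which fell: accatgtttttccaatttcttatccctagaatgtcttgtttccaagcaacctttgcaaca
MOUSELNCRNA_15618 read 6.40, 6.51 and 6.08 at day 3 and 10.49, 9.99 and 10.18 at day 7, a rise of 3.89 (SE 0.18, limma adjusted p = 2.19e-06), or 14.8-fold, from a day 0 mean of 5.63. It held this level at day 14, at 10.29. MOUSELNCRNA_56339 dipped and returned, from a mean of 8.01 at day 0 to 4.78, 4.60 and 5.39 at day 3 and 8.88, 8.33 and 9.06 at day 7 (limma adjusted p = 6.82e-06).

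MOUSELNCRNA_67566 was well above background on no array at day 0 or day 14 and peaked at day 3, at 11.55, 11.39 and 12.09, before 5.86, 5.87 and 6.16 at day 7. Its fall of -5.71 (SE 0.22, limma adjusted p = 6.6e-07) was 52.3-fold. MOUSELNCRNA_53345 went from a mean of 7.01 at day 0 to 11.20, 9.56 and 12.34 at day 3, the widest spread of the probes named here, and 6.14, 5.93 and 6.78 at day 7 (limma adjusted p = 0.000253). All 4 kept the call with the block and with normexp, where the folds were smaller, at 8.80 and 5.42 for MOUSELNCRNA_15618 and MOUSELNCRNA_56339 and 25.6 and 15.1 for MOUSELNCRNA_67566 and MOUSELNCRNA_53345.

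Some RNAs were seen on 1 of the 2 days alone. Of the 62803 tested probes, 146 were called higher, passed the background test 3 times of 3 at day 7 and never passed it at day 3. Their rise was at least 2-fold for 72, 4-fold for 18 and 8-fold for 5, with a largest bound of 15.7-fold. In the other direction 230 probes were seen on all 3 day 3 arrays and on none at day 7, with bounds of at least 2-fold for 135, 4-fold for 30 and 8-fold for 5, up to 54.8-fold. Of the 146, 74 had been seen on all 3 day 0 arrays and 37 on none. Of the 230, 54 had been seen on all 3 day 0 arrays and 67 on none. With the block 117 of the 146 and 138 of the 230 were called. All of these probes were picked by their call and by the background test on the same arrays, so the counts are a description and no test.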

How the data were processed

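RNA was measured on 12 one-colour (Cy3) arrays of pooled sciatic nerve RNA, grouped by day from the sample titles. The deposited scanner files hold intensity values from Agilent Feature Extraction (10.7 per the submitters' processing notes, 10.7.1.1 per the file headers), background-subtracted within each array and not scaled between arrays. The deposited series table holds log2 values with a median of 6.42 in every column. Its columns correlated at 0.993 to 1.000 with the scanner log2 signals across probes, and its further steps were not stated. Its values gave 22228 calls and quantile normalization gave 22229, so these alternatives are not separate checks on a result.

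Control and flagged spots were left out, the log2 signals of the spots of a probe averaged (85274 probes with 2 spots, 5478 with 1), and each array scaled to the mean 75th percentile of 9.34. The model, in limma 3.58.1 (R 4.3.3), had 1 mean per day over all 12 arrays, with Benjamini-Hochberg adjustment over all tested probes. The number of arrays limits the precision, and the median standard error of a difference was 0.16. The fit was tested on simulated data.

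Probes were placed by exact letters with Python 3.11.15. The brightest probe stood for a gene on each strand. Genes were named by rule: the 12 largest rises and 12 largest falls among called placed genes measured on all 6 arrays (above background, below saturation) and not overlapping by day, without predicted or clone names (46 of 224), then up to 4 called members per list, and the 2 largest rises and falls among unplaced probes. Mir23a, Mir27a, Mir24-2, the blood cell hairpins, Mir377, Mir453 and Mirg were added after their values were seen. Of 629 genes on the planned gene and marker lists, 6 had a tested probe at their start on their strand, of which 1 rose and 1 fell, so these lists were not used. Members and lists were chosen with earlier results of these data known. The day 3 and day 7 replicate numbers were not taken as pairs, and whether they pair the samples could not be decided. Alternatives were quantile normalization, another percentile, normexp (offset 50), other filters, the deposited log2 values, slide, scan day and replicate terms, fewer arrays and leaving out each array. Scan day was added after seeing the data.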

Additional observations from a re-analysis of the deposited data

How the results depend on the processing

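No probe named by size changed sign under any alternative run for it, while the balance of rises and falls and the order of their day 0 standing turned with the scaling or the slide term, as given above. Within slide 2 alone, which leaves 1 degree of freedom for the spread, 4913 probes were called, 2734 higher and 2179 lower, with 17 placed genes higher and 18 lower. There the rises with day 0 above both, between and below both numbered 1465, 933 and 336, and the falls 264, 643 and 1272. The placed genes called higher, 77 in the report's fit, numbered 122 with the deposited series table, 122 under quantile normalization, 47 with normexp, 46 with the 6 arrays alone, 42 within scan day 2 and 50 with a fixed slide block. The placed genes called lower, 178, numbered 96 with no filter on dim probes, 100 with scan day as a block, 82 and 90 with slide as a fixed or random block and 84 within scan day 2. Falls with day 0 above both numbered 1641 with the series table and 1643 under quantile normalization. Falls with day 0 between numbered 3229 and 3333 with slide as a fixed or random block. Within scan day 2, falls with day 0 above both and between numbered 957 and 2481, and rises with day 0 below both and between 841 and 2204. Both scan day alternatives were chosen after seeing the data. For these counts the cause was not tested, and 3 of these alternatives also use fewer arrays.

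Leaving out 1 array of day 3 or day 7 at a time gave 12088 to 27576 calls, 6458 to 11515 higher and 5630 to 16061 lower, and without day 0 replicate 3 27869 were called and 16997 were lower. Placed genes ranged from 42 to 103 higher and from 53 to 289 lower. With the day 0 arrays left out in turn as well, rises with day 0 above both, between and below both ranged from 2817 to 4546, 2497 to 4658 and 1045 to 2689, and falls from 1021 to 7762, 2048 to 9818 and 2467 to 3940. Of the 28 probes named by size, from 21 to 28 kept the call when 1 array of day 3 or day 7 was left out, 20 within scan day 2 and 14 within slide 2, where Mir338, Mir218-1, Mir100, Mir24-1 and Mir99a were among those that lost it. With normexp all 28 kept the call and 12 had a fold that moved by over 1.5 times. With the replicate number as a block 23978 probes were called, 9914 higher and 14064 lower, and all 28 were called. Day 3 and day 7 arrays of the same number did not deviate together (correlations of -0.19, 0.04 and -0.14). Over all pairs of a day 3 and a day 7 array the sign of the correlation followed the slides. The correlations therefore cannot decide whether the numbers pair the samples. Dim probes are limited by their signal over background, and slide and day cannot be fully told apart with 1 slide holding both days.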
